A study of Homo sapiens with 3 samples.

Results

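The response of HCC-LM3 cells to cyclopamine, an antagonist of SMO, was described here against the vehicle DMSO. HCC-LM3 is an established human hepatocellular carcinoma (HCC) line that grows attached to the dish, and its labels call it epithelial and an adenocarcinoma. The 3 conditions were profiled on Illumina HumanHT-12 v4 BeadChips, with a single array for each, labelled replicate 1. They were cyclopamine at 20 μM, GANT61 (an inhibitor of the Gli transcription factors) at 20 μM, and DMSO, all for 48 h. The cyclopamine and DMSO arrays are 2 of the 3 arrays, and the GANT61 array served to ask which changes were particular to cyclopamine. A gene was described where its signal intensity exceeded 63.7, which is 1.5 times the most common intensity, on at least 1 of the 2 arrays, and 10236 of 20043 named genes did so. A change was called particular to cyclopamine where the intensity differed at least 2-fold from DMSO while GANT61 stayed within 1.5-fold of DMSO. This rule left 50 genes that were lower and 105 genes that were higher with cyclopamine. There is no replicate check on any of these differences, no p-value is given, and a single culture, its labelling and its array cannot be told apart from the compound. Since GANT61 and cyclopamine are compared with the same DMSO array, an odd value on that array moves both differences together.

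Hedgehog (Hh) ligands bind the receptor PTCH1, which then no longer restrains SMO, a membrane protein of the G-protein-coupled receptor class. SMO passes the signal on, largely at the primary cilium, to GLI2 and GLI3, and these transcription factors switch on target genes such as GLI1 and PTCH1. Cyclopamine is a plant steroidal alkaloid that binds SMO, whereas GANT61 acts below it on the Gli proteins. In the adult liver the pathway is mostly quiet in hepatocytes and is known for its activity in regeneration, fibrosis and some liver tumors.

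The values are intensities on a linear scale, which the authors had normalized between arrays. Their medians were 47.6, 47.6 and 47.7 with cyclopamine, GANT61 and DMSO, and 15785 to 15786 of 47319 probes exceeded the limit on each array. Probe pairs of the same gene gave an SD of 0.39 for a log2 difference between arrays (0.31 to 0.46 over 5 classes of brightness, 2647 pairs), which covers probes and not cultures. This SD was estimated from the median absolute deviation of the differences within pairs, which gives little weight to the widest disagreements between probes. The median log2 difference of all genes was 0.03 with cyclopamine, whereas 10 genes commonly used as references had a median of −0.52. Scaling on these references would therefore add 0.52 to every log2 difference with cyclopamine and 0.72 to every one with GANT61. Of the 10 references 8 lay below DMSO with cyclopamine and 2 were at least 2-fold lower, all as deposited. These differences rest on the normalization that the scaling would replace. They therefore cannot tell whether the references or the deposited scale had shifted, and this was not tested. SDHA, at 1400 with cyclopamine and 2991 with DMSO, is also in the list of oxidative phosphorylation genes. The directions below are relative to the normalization as deposited. Of 25 hepatocyte genes 5 were above the limit on either array. The urea cycle enzymes ASS1 and CPS1 were bright among them, at 12362 and 5742 with cyclopamine and 15726 and 9060 with DMSO, whereas ALB (albumin) had 70.4 with cyclopamine and 69.6 with DMSO, and AFP, APOA1, APOB, TTR and SERPINA1 were not above the limit. Of 22 epithelial and progenitor markers 13 exceeded it, among them EPCAM at 387 with cyclopamine and 401 with DMSO and KRT8 at 335 with cyclopamine and 1423 with DMSO, while CDH1, KRT19, CLDN1, CLDN4 and OCLN did not. VIM (vimentin), a mesenchymal gene, had 4514 with cyclopamine and 6333 with DMSO. Markers of other cell types were mostly at background, with 2 of 8 for fibroblasts, 1 of 8 for endothelial cells and 1 of 9 for immune cells above the limit. The markers of hepatocytes and of epithelium were thus each met in part.

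In all, 659 genes (6.44% of those above the limit) lay below DMSO by 2-fold or more on the cyclopamine array, and 491 (4.8%) lay above DMSO by 2-fold or more. Their median log2 differences were −1.28 and 1.19, and 50 of the lower but 8 of the higher genes reached 4-fold. Because 1 of the 2 arrays was not above the limit, 36 of the lower and 23 of the higher genes have only a bound. SNAR-A1, a short noncoding transcript of RNA polymerase III, showed the largest decrease, at −5.46 on the log2 scale. The next were YWHAE, a 14-3-3 protein (−3.77 by the brighter of its probes), SNORD13, a small nucleolar RNA (−3.68), UBA1, the enzyme that activates ubiquitin (−3.02), PKM, the pyruvate kinase of glycolysis (−2.98), and UCP2, a mitochondrial carrier (−2.92). TNFRSF14, a receptor of the TNF family, was the most increased (3.75), followed by LGALS3, a galectin (2.50), UBLCP1, a phosphatase (2.37), DPP7, a lysosomal peptidase (2.33), and UCN, a peptide of the corticotropin-releasing family (2.23). This order rests on the brightest probe of each gene. By the mean of all probes, which includes probes not above the limit, YWHAE had −2.19, UBA1 −2.12, LGALS3 1.20, UCN 1.13 and DPP7 0.04. The others moved by no more than the probe SD of 0.39. None of these 11 genes was particular to cyclopamine, since GANT61 differed from DMSO by more than 1.5-fold in the same direction for each.

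**Figure D1:**
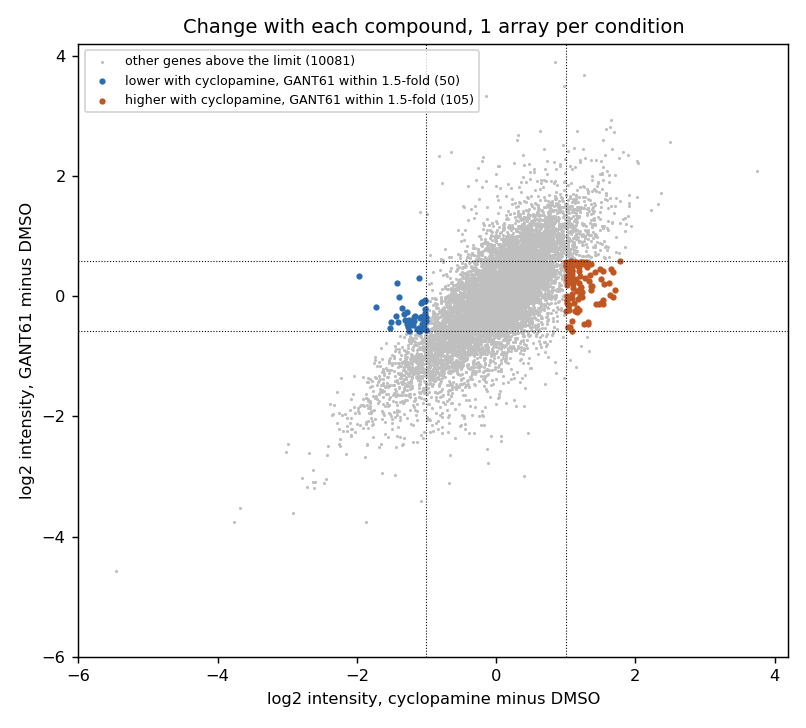
Log2 intensity difference from DMSO with cyclopamine (horizontal axis) and with GANT61 (vertical axis) for the 10236 genes above the limit. Each point is 1 gene, and dotted lines mark 2-fold for cyclopamine and 1.5-fold for GANT61. The 50 lower genes (blue) and 105 higher genes (orange) lie in the bands that define them, and both axes hold the same DMSO array, which by itself aligns the points.

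The genes particular to cyclopamine made up 0.488% of the genes above the limit in the lower direction and 1.03% in the higher direction. The rule does not require the treated arrays to differ by much, so the distance between them was examined. For the 50 lower genes the median log2 difference was −1.12 with cyclopamine and −0.39 with GANT61, and GANT61 lay on the same side of DMSO for 47 of them. Only 10 of the 50 differed at least 2-fold between the treated arrays. For the 105 higher genes the medians were 1.16 with cyclopamine and 0.28 with GANT61, GANT61 lay on the same side for 77, and 50 differed at least 2-fold between the treated arrays. A narrower window for GANT61, within 0.32 of DMSO on the log2 scale, held 14 of the lower and 51 of the higher genes. Only a bound exists for 2 of the 50 and 13 of the 105, and with values under the limit set to the limit 49 and 97 met the rule. METAP1, an aminopeptidase with 573 with cyclopamine and 1147 with DMSO, and STMN1 (log2 difference −1.01) lay just inside the lower threshold. TDP1, a DNA repair enzyme with 1460 with cyclopamine and 2912 with DMSO, lay just outside it, as did ANXA2R-OT1, whose intensity of 34.2 with cyclopamine was under the limit and gives only a bound. TRAK2 (1.00) and HOXA11-AS (1.01) lay just inside the upper threshold, and ID2 and FLYWCH2 (both 1.00 after rounding) just outside it. The distances from the threshold of the genes measured on both arrays are far below the probe SD of 0.39. After scaling on the reference genes, 23 genes were lower by the same rule, of which 1 is among the 50, and 154 were higher, of which 15 are among the 105, so that membership rests on the normalization.

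**Figure D2:**
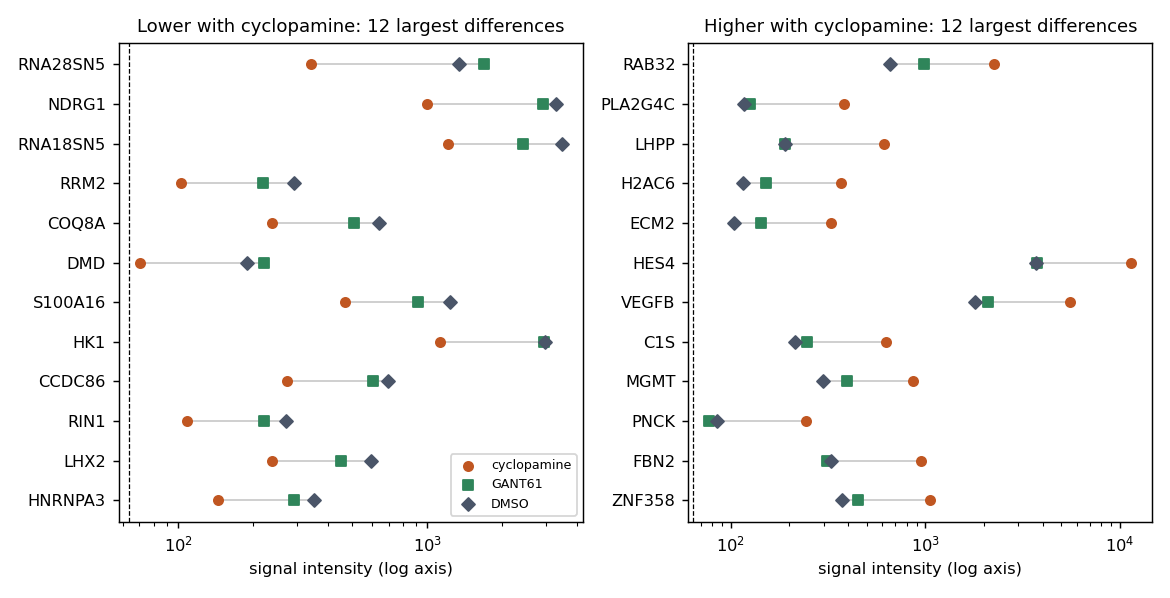
Signal intensity (log axis) with cyclopamine (circles), GANT61 (squares) and DMSO (diamonds), 1 array each, for the 12 largest differences in each direction among the genes particular to cyclopamine. The dashed line is the limit of 63.7; GANT61 lies close to DMSO for NDRG1, HK1, HES4, LHPP and FBN2, and between cyclopamine and DMSO for RRM2, COQ8A and RAB32.

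Among the 50 lower genes, 12 act in the cell cycle, DNA replication or repair. The role groups of the genes particular to cyclopamine were made after the values were seen, with no fixed list behind them, so the share of such genes among all genes above the limit was not counted and their counts only order the description. They hold 28 of the 50 lower and 35 of the 105 higher genes. RRM2, the small subunit of ribonucleotide reductase, had an intensity of 103 with cyclopamine, 219 with GANT61 and 293 with DMSO (log2 difference −1.51 with cyclopamine, −0.42 with GANT61). UHRF1, which maintains DNA methylation behind the replication fork, had 667, 1209 and 1581 in the same order of arrays (−1.24 with cyclopamine). CCNA2, cyclin A2, which drives S phase and entry into mitosis, had 405 with cyclopamine, 674 with GANT61 and 862 with DMSO (−1.09). For these genes the GANT61 array lay between the other two. KIF2C, a kinesin that shortens microtubules at the kinetochore, stood at −1.25 with cyclopamine and −0.45 with GANT61 on the log2 scale. NCAPD2, a condensin subunit, had −1.25 and −0.58, CEP55, which acts in the last step of cell division, −1.09 and −0.57, and EZH2, the histone methyltransferase of Polycomb, −1.10 and −0.58, each with cyclopamine first. RAD54L, a recombination factor, and BARD1, the partner of BRCA1, had −1.10 and −1.06 with cyclopamine, against −0.55 and −0.09 with GANT61. Repair genes stood in the higher set too: ATM, the kinase that signals DNA breaks, had 777 with cyclopamine, 468 with GANT61 and 321 with DMSO (1.27 and 0.54). By the mean of all its probes ATM had 0.79 with cyclopamine and so did not reach 2-fold. FANCC of the Fanconi anemia pathway has only a bound, at least 1.79-fold higher, its DMSO array being under the limit. It met the 2-fold rule only with that DMSO value taken as it stands. E2F4, MIS18A and STMN1 complete the lower group.

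The promoter of CCNA2 is shown because it carries the short element known as the cell cycle gene homology region (CHR), through which many genes of G2 and M phase are repressed in resting cells. The window reaches from 250 bases before to 50 bases after the start of the gene, on the minus strand of GRCh38.p14 chr4:121823834-121824133, and is RefSeq sequence. Capitals mark the CHR letters CTTGAA, at positions −87 to −82 and −28 to −23 from the start.
CCNA2: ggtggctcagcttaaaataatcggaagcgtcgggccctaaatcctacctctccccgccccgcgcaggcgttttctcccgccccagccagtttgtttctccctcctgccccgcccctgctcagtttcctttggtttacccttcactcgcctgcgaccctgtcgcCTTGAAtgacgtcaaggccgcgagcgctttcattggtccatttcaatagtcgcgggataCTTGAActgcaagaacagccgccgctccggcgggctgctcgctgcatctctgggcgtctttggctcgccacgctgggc
Besides CTTGAA, the variant TTTGAA was searched on both strands, and so was the variant spelled TTTAAA, which is its own reverse complement. One of them stood in 12 of 43 promoters of the lower genes (27.9%) and in 23 of 89 promoters of the higher genes (25.8%). Over all genes above the limit it was 2292 of 8357 promoters (27.4%), and in a list of G2/M genes 29 of 34 (85.3%). The genes particular to cyclopamine thus held these letters about as often as other genes. The Gli consensus GACCACCCA stood in 0 of the 43 and 1 of the 89 promoters, that of ZMYND11, a reader of histone methylation. Over all genes above the limit it stood in 27 of the 8357 promoters (0.323%), searched on both strands.

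The most decreased genes of the lower set were 2 ribosomal RNA transcripts. RNA28SN5, the 28S ribosomal RNA, had an intensity of 341 with cyclopamine, 1695 with GANT61 and 1342 with DMSO, a log2 difference of −1.98, and its other probe gave −1.08 with cyclopamine and 0.24 with GANT61. RNA18SN5, the 18S ribosomal RNA, had 1211 with cyclopamine, 2413 with GANT61 and 3465 with DMSO (−1.52). These transcripts come from many near-identical copies and carry no long poly(A) tail, so their signal on this array is uncertain. A further 8 lower genes act in the making or processing of RNA, with log2 differences between −1.35 and −1.01. They include CCDC86 and NOLC1 of the nucleolus (−1.35 and −1.27), the splicing factor SF1 (−1.27), the RNA-binding proteins HNRNPA3 (−1.28) and HNRNPA1 (−1.11), and the RNA polymerase II subunit POLR2D (−1.02). HNRNPA1 and HNRNPA3 have many processed copies in the genome, which may share their probes.

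NDRG1, a protein induced by hypoxia and differentiation, had an intensity of 994 with cyclopamine, 2915 with GANT61 and 3282 with DMSO (−1.72 with cyclopamine, −0.17 with GANT61). HK1, the hexokinase that commits glucose to glycolysis, had 1125 with cyclopamine, 2934 with GANT61 and 2972 with DMSO (−1.40 and −0.02). For both, GANT61 was within 0.32 of DMSO on the log2 scale while cyclopamine stood far below. The other 3 probes of HK1 were not above the limit. COQ8A, which acts in coenzyme Q synthesis, had 238, 509 and 642 with cyclopamine, GANT61 and DMSO (−1.43), and MCU, the pore of the mitochondrial calcium uniporter, had a log2 difference of −1.27. TWNK, the helicase of mitochondrial DNA, and ANGPTL4, an inhibitor of lipoprotein lipase, had −1.07 and −1.02 with cyclopamine, and ANGPTL4 had −0.44 by the mean of its probes.

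A few lower genes lay on the other side of DMSO with GANT61. DMD (dystrophin) had an intensity of 70.1 with cyclopamine, 221 with GANT61 and 189 with DMSO (−1.43 with cyclopamine, 0.23 with GANT61), and the next of its 8 probes gave −0.65 and 0.22. HBEGF, a ligand of the EGF receptor, had 114 with cyclopamine, 302 with GANT61 and 245 with DMSO (−1.10 and 0.30). Of the remaining genes among the 12 largest decreases, S100A16, a calcium-binding protein (−1.40), RIN1, a Ras effector (−1.32), and LHX2, a homeobox transcription factor (−1.31), had GANT61 between cyclopamine and DMSO. AXIN1, a scaffold that restrains Wnt signaling, had −1.05 with cyclopamine and −0.53 with GANT61, but −0.57 with cyclopamine by the mean of its probes. By its brightest probe it was the only one of 18 Wnt genes above the limit that was at least 2-fold lower (6.44% of all genes were).

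Of the higher genes, RAB32, a small GTPase of mitochondria and lysosome-related organelles, had the largest difference, with an intensity of 2254 with cyclopamine, 982 with GANT61 and 657 with DMSO (1.78 with cyclopamine, 0.58 with GANT61). GANT61 was close to the edge of its 1.5-fold window for this gene. HES4, a transcriptional repressor of the Hairy and Enhancer of split family, was the brightest of the set, with 11452 with cyclopamine, 3768 with GANT61 and 3691 with DMSO (1.63 and 0.03). LHPP, a histidine phosphatase, had 609 with cyclopamine, 189 with GANT61 and 189 with DMSO (1.68 with cyclopamine). FBN2, the microfibril protein fibrillin-2, had 944 with cyclopamine, 313 with GANT61 and 326 with DMSO (1.53 and −0.06). In HES4, LHPP and FBN2 the GANT61 and DMSO arrays were nearly alike and only the cyclopamine array stood apart. PLA2G4C, a phospholipase A2, had 381 with cyclopamine, 125 with GANT61 and 116 with DMSO (1.71), and MGMT, which removes alkyl groups from guanine in DNA, had 865 with cyclopamine, 397 with GANT61 and 297 with DMSO (1.54). VEGFB, a growth factor of the VEGF family, had 5509 with cyclopamine, 2091 with GANT61 and 1798 with DMSO (1.62 and 0.22), whereas its next probe gave 0.53 and −0.93. C1S, a complement protease, ECM2, a matrix protein, PNCK, a calmodulin-dependent kinase, and ZNF358, a zinc finger protein, had log2 differences of 1.55, 1.66, 1.53 and 1.51 with cyclopamine.

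Of the 105 higher genes 11 were grouped under mitochondria and peroxisomes, with log2 differences from 1.01 to 1.44. SLC25A16, a mitochondrial carrier, had an intensity of 825 with cyclopamine, 278 with GANT61 and 304 with DMSO (1.44). UROS, an enzyme of heme synthesis that itself works in the cytosol, had 1421, 618 and 549 with cyclopamine, GANT61 and DMSO (1.37). PHYH, which starts the breakdown of phytanic acid in peroxisomes, had 1072, 613 and 435 in the same order (1.30). NDUFA7 of respiratory complex I and ATP5F1E of ATP synthase had 1.16 and 1.01 with cyclopamine, against −0.19 and −0.07 with GANT61. The respiratory chain as a whole lay near all genes. Of 44 listed genes of oxidative phosphorylation above the limit, which do not hold these 2, 4 passed 2-fold downward with cyclopamine (9.09%, against 6.44% of all genes). Upward, 2 passed it (4.55%, against 4.8%), and the median log2 difference of the 44 was 0.06, against 0.03 for all genes.

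A further 6 higher genes belong to the extracellular matrix and cell surface, with log2 differences from 1.02 to 1.66. Beside ECM2 and FBN2 they include RECK, an inhibitor of metalloproteinases (1.02 with cyclopamine, 0.01 with GANT61), FAT1, a giant cadherin (1.09 and 0.41), and MUC1, a membrane mucin. MUC1 had 5182 with cyclopamine, 3017 with GANT61 and 2263 with DMSO by its brightest probe (1.20), but its other probes gave 0.31 and −1.03 with cyclopamine, so that its direction depended on the probe. The interferon-related genes PLAAT4, SLFN5, ISG15 and PSMB10 had log2 differences between 1.07 and 1.27 with cyclopamine, and PLAAT4 has only a bound (at least 2.39-fold higher), since DMSO was not above the limit. Of 27 listed genes of the interferon response and MHC class I, 2 were at least 2-fold higher (7.41%, against 4.8% of all genes). At least 2-fold lower were 3 (11.1%, against 6.44%), and the median of the 27 was −0.12, which changed sign on scaling by the reference genes (0.40). IFT20 and DYNC2LI1, which carry cargo within the primary cilium, had 1.16 and 1.08 with cyclopamine and 0.56 and 0.58 with GANT61, near the edge of the window. Of 28 listed cilium genes 1 was at least 2-fold higher, IFT20, and 1 lower, TULP3 (−1.28). Each is 3.57% of the list, where 4.8% of all genes were higher and 6.44% lower. ACTA2, smooth muscle actin, had 723 with cyclopamine, 210 with GANT61 and 290 with DMSO (1.32 and −0.46).

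A second probe of the same gene, which the rule did not use, was available for 13 of the 50 lower and 29 of the 105 higher genes. It lay on the same side of DMSO with cyclopamine for 10 of the 13 and 23 of the 29, beside 51.0% below and 49.0% above DMSO for all 2647 second probes. It reached 2-fold in that direction for 1 of the 13 and 5 of the 29, beside 6.16% lower and 3.44% higher for all second probes. The whole rule, GANT61 included, was met by the second probe of 1 lower gene, RNA28SN5, and of 0 higher genes. Over all genes at least 2-fold from DMSO, 140 of 151 second probes were on the same side for the lower and 110 of 157 for the higher genes. By the mean of all probes C1S had 0.90, VEGFB 0.70, HK1 −0.42, DMD −0.20 and STMN1 −0.05 with cyclopamine, and so did not reach 2-fold, and DPP7 and FST likewise had 0.04 and −0.58. That mean includes probes not above the limit, such as the other probes of HK1, and these can draw it toward 0. A smaller mean is therefore not by itself a disagreement between probes that detect the gene. Direction was thus more often shared between probes than size, and probes of one gene can also detect different transcripts.

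**Figure D3:**
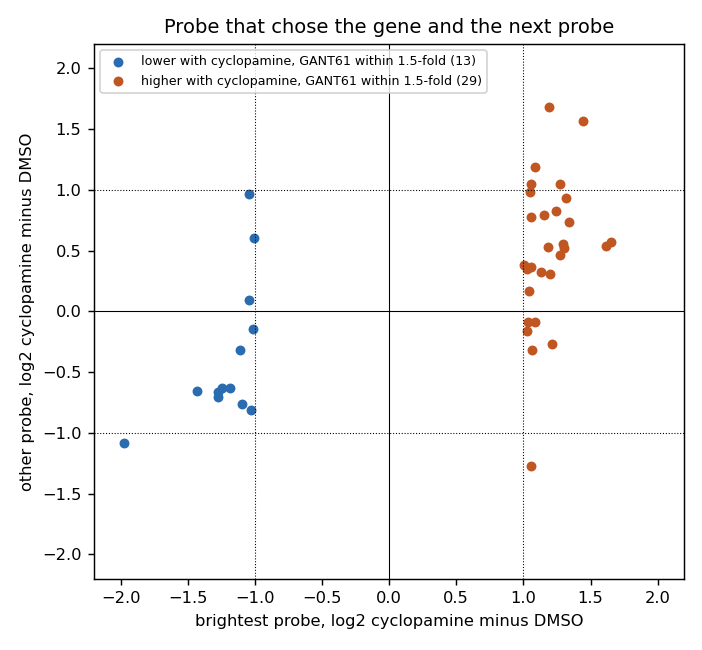
Log2 difference of cyclopamine from DMSO by the brightest probe of a gene, which chose it (horizontal axis), and by its next probe above the limit (vertical axis), for the genes particular to cyclopamine. Of the 13 lower genes 10 lie below 0 on the vertical axis and of the 29 higher genes 23 lie above 0, and most points fall short of the dotted 2-fold lines.

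Genes of endoplasmic reticulum (ER) stress were examined next, because HSPA5 and DDIT3 were among the higher genes. HSPA5, the ER chaperone BiP that is a hallmark of the unfolded protein response, had an intensity of 1110 with cyclopamine, 466 with GANT61 and 432 with DMSO (1.36 and 0.11). DDIT3, the stress transcription factor CHOP, had 953 with cyclopamine, 437 with GANT61 and 447 with DMSO (1.09 and −0.03), and was chosen after its values were seen. In both genes the GANT61 and DMSO arrays were close together. OSTC, a subunit of the oligosaccharyltransferase, had 4853 with cyclopamine, 3030 with GANT61 and 2387 with DMSO (1.02). The promoter of HSPA5 is shown because it carries an ER stress response element (ERSE), which is the letters CCAAT followed after a gap of 9 bases by the letters CCACG, and it is bound during the unfolded protein response. The sequence is the RefSeq window of GRCh38.p14 chr9:125241294-125241593 on the minus strand, from 250 bases before to 50 bases after the start, and the capitals mark the element at positions −66 to −48.
HSPA5: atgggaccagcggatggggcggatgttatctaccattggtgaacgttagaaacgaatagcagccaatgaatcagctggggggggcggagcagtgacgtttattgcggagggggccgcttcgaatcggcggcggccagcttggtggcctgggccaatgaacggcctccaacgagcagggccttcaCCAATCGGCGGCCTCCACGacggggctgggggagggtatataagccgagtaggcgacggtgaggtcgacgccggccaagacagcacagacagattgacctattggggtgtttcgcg
These letters, on either strand, stood in 14 of 8357 promoters of all genes above the limit (0.168%), in 1 of the 89 promoters of the higher genes and in 0 of the 43 of the lower genes. Among 21 listed genes of the unfolded protein response they stood in 7, and these 7 did not move together. Besides HSPA5, CANX (0.33), XBP1 (0.36), CRELD2 (0.10) and HSP90B1 (−0.07) differed little from DMSO with cyclopamine, PDIA6 had −0.72, and CALR, a calcium-binding chaperone, had 398 with cyclopamine, 395 with GANT61 and 1105 with DMSO (−1.47). These genes were chosen by the element in their promoter.

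Over all 21 listed genes of the unfolded protein response above the limit, 1 reached 2-fold upward with cyclopamine (HSPA5) and 2 reached it downward (CALR and P4HB, the protein disulfide isomerase, at −1.06). These shares of 4.76% and 9.52% were near those of all genes, 4.8% and 6.44%. The list's median log2 difference was 0.24, against 0.03 for all genes, and it was 0.00 with GANT61. It was 0.10 by the mean of all probes, and after scaling on the reference genes it was 0.77 with cyclopamine and 0.72 with GANT61, so the gap between the compounds depended on the normalization. In the list of ATF4 targets and amino acid stress, 4 of 26 genes were at least 2-fold higher (15.4%, against 4.8% of all genes) and 3 at least 2-fold lower (11.5%, against 6.44%), with a median of 0.06 with cyclopamine and −0.45 with GANT61. GDF15, a stress-induced cytokine, had 269 with cyclopamine, 391 with GANT61 and 79.4 with DMSO (1.76), and PPP1R15A, which restores translation after stress, had 1213 with cyclopamine, 2800 with GANT61 and 404 with DMSO (1.59). SLC1A5, a glutamine transporter, had 255, 278 and 753 with cyclopamine, GANT61 and DMSO (−1.56). Of the stress genes at least 2-fold higher, only HSPA5 and DDIT3 had GANT61 within 1.5-fold of DMSO.

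Cyclopamine has a steroidal frame, and the genes of sterol handling were therefore listed. Of 19 genes of cholesterol synthesis and uptake above the limit, 5 passed 2-fold downward with cyclopamine (26.3%, against 6.44% of all genes), 1 passed it upward, and the median was −0.31, which turned to 0.21 on scaling by the reference genes. MVD, which makes isopentenyl diphosphate, had an intensity of 125 with cyclopamine, 135 with GANT61 and 329 with DMSO (−1.40), and DHCR7, the last enzyme of cholesterol synthesis, had 283, 274 and 707 (−1.32). SQLE, squalene epoxidase, had −1.10, TM7SF2, a sterol reductase, had −1.06, and MVK, mevalonate kinase, was at least 2.43-fold lower, its cyclopamine array being under the limit. CYP51A1, the sterol demethylase, went the other way, with 523 with cyclopamine, 632 with GANT61 and 170 with DMSO (1.62). After that scaling 1 of the 19 was at least 2-fold lower and 4 were higher. Of the 19, 0 were particular to cyclopamine, where 0.488% and 1.03% of all genes were in the lower and higher direction, so a count of 0 is near the share of all genes. Among 13 genes of sterol efflux and the LXR receptors, NR1H3, which encodes LXRα, had 1573 with cyclopamine, 791 with GANT61 and 475 with DMSO (1.73 and 0.74), and LPCAT3, a phospholipid-remodeling enzyme that LXR induces, had −1.13. NPC1, the lysosomal cholesterol exporter, had 580 with cyclopamine, 2042 with GANT61 and 745 with DMSO, and stood apart with GANT61 instead.

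**Figure D4:**
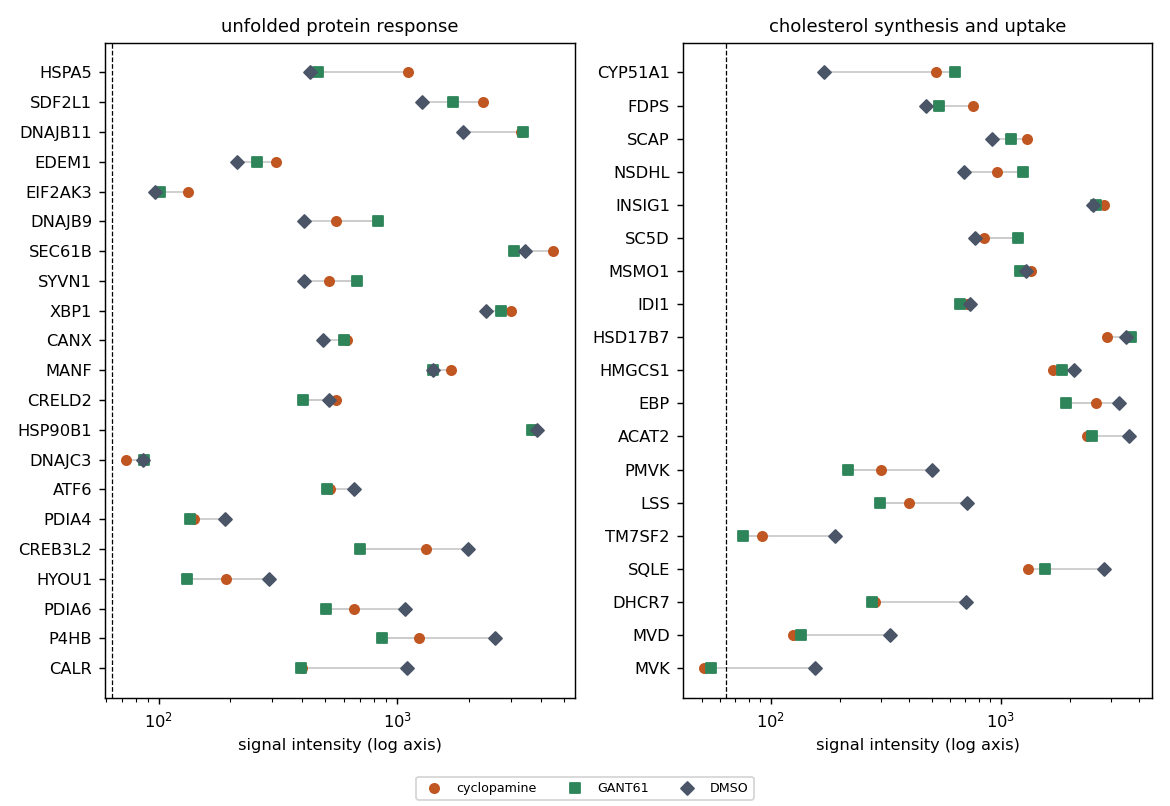
Signal intensity (log axis) with cyclopamine (circles), GANT61 (squares) and DMSO (diamonds), 1 array each, of the 21 listed genes of the unfolded protein response and the 19 of cholesterol synthesis and uptake above the limit of 63.7 (dashed), ordered by the difference between cyclopamine and DMSO. HSPA5 stands apart with cyclopamine alone, whereas CALR, P4HB, MVK, MVD, DHCR7 and CYP51A1 differ from DMSO with both compounds.

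The Hh pathway itself gave few measurable values. SMO, the target of cyclopamine, had intensities of 38.6 with cyclopamine and 39.9 with DMSO, PTCH1 had 48.3 and 55.9, and GLI1 had 41.2 and 40.9, all under the limit, so no fold is given. The ligands SHH, IHH and DHH and the regulator SUFU were also under the limit. Of 22 ligands and transducers 9 were above it, and 0 of the 9 were at least 2-fold from DMSO. Since 6.44% of all genes were lower and 4.8% higher, a count of 0 in 9 says little. GLI2 had 108 with cyclopamine, 74.0 with GANT61 and 127 with DMSO (−0.24 with cyclopamine), and GLI3 had 110, 78.1 and 109 in the same order (0.01). GAS1, a co-receptor for Hh ligands, had 1527 with cyclopamine, 653 with GANT61 and 1023 with DMSO (0.58), and STK36, a kinase of the pathway, had 332 with cyclopamine, 395 with GANT61 and 223 with DMSO (0.58). HHAT, which attaches palmitate to the ligands, had 0.51. The differences of GLI2 and GLI3 are below the probe SD of 0.39.

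Of 17 listed Hh target genes 6 were above the limit, and 2 were at least 2-fold lower with cyclopamine (33.3%, against 6.44% of all genes). FOXM1, a transcription factor of G2/M genes, had 199 with cyclopamine, 215 with GANT61 and 874 with DMSO (−2.14), and JAG2, a Notch ligand, had 176 with cyclopamine, 155 with GANT61 and 392 with DMSO (−1.15). The authors took up FOXM1 as a Gli2 target partly because their microarray showed it lower with both compounds. Its place in this list therefore depends on these same data, and nothing is drawn from the share of 33.3%. FOXM1 is also counted among the G2/M genes below. CCND1, cyclin D1, had 1582 with cyclopamine, 1366 with GANT61 and 1576 with DMSO (0.01), and BCL2, an inhibitor of apoptosis, had 286 with cyclopamine, 130 with GANT61 and 195 with DMSO (0.55). FOXF1 and CXCR4 had −0.50 and −0.14. The median of the 6 was −0.32 and turned to 0.20 on scaling by the reference genes, after which 1 was at least 2-fold lower and 1 higher. Of the Hh genes above the limit 0 were particular to cyclopamine, which at shares of 0.488% and 1.03% over all genes says little about so few genes.

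Among the wider lists, genes of cell division were lower more often than all genes. Of 41 G2/M genes 10 passed 2-fold downward with cyclopamine (24.4%, against 6.44%), 1 passed it upward, and the median was −0.63. CDC25B, a phosphatase that activates CDK1, TPX2, a spindle assembly factor, and CDCA8, a subunit of the chromosomal passenger complex, had −2.06, −1.87 and −1.71 with cyclopamine. Of 13 mitotic kinesins above the limit 6 were at least 2-fold lower (46.2%, against 6.44%; 3 after scaling on the reference genes). KIFC1 led them with 165 with cyclopamine, 301 with GANT61 and 775 with DMSO (−2.23), and KIF20A had 318 with cyclopamine, 330 with GANT61 and 932 with DMSO (−1.55). Of 43 genes of S phase and replication 9 were at least 2-fold lower (20.9%) and 0 higher, but 3 were lower and 3 higher after scaling on the reference genes, which turned their median of −0.31 to 0.21. MCM5, a subunit of the replicative helicase, had −1.96, FEN1, the flap endonuclease, −1.74, and TK1, thymidine kinase, −1.72. In these lists CCNA2, KIF2C, RRM2 and UHRF1 were the genes particular to cyclopamine, where 0.488% of all genes were in the lower direction. The medians with GANT61 were −0.42 for G2/M genes, −0.65 for the kinesins and 0.03 for S phase.

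Tubulins and their regulators and the genes of glycolysis were also lower with cyclopamine, and their medians of −0.74 and −0.91 stayed below 0 after scaling by the reference genes (−0.22 and −0.39), as did those of the G2/M genes and kinesins (−0.11 and −0.34). With GANT61 the medians were −0.48 for tubulins and −0.62 for glycolysis, and by the mean of all probes that of glycolysis was −0.60 with cyclopamine. Of 17 tubulin genes 7 were at least 2-fold lower (41.2%, against 6.44% of all genes; 4 after scaling on the reference genes), among them TBCD and TBCB, which fold tubulin (−1.95 and −1.58), and TUBB3 and TUBB4B (−1.67 and −1.61). The list holds 2 genes particular to cyclopamine, where 0.488% of all genes were in the lower direction. They are TUBB2A, with 213 with cyclopamine, 357 with GANT61 and 432 with DMSO (−1.02), and STMN1, which destabilizes microtubules (−1.01). Both lay close to the 2-fold threshold, and STMN1 had −0.05 by the mean of all probes. Tubulin genes resemble each other in sequence, so their probes may not be separate. Of 22 glycolytic genes 9 were at least 2-fold lower (40.9%; 4 after that scaling), among them BSG, a partner of lactate transporters (−2.61), PGAM1, a mutase (−1.76), and ENO2, an enolase (−1.59). By the mean of all probes BSG had −1.32 and PGAM1 −0.98. HK1 was the one glycolytic gene particular to cyclopamine, beside the same share of 0.488% of all genes.

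**Figure D5:**
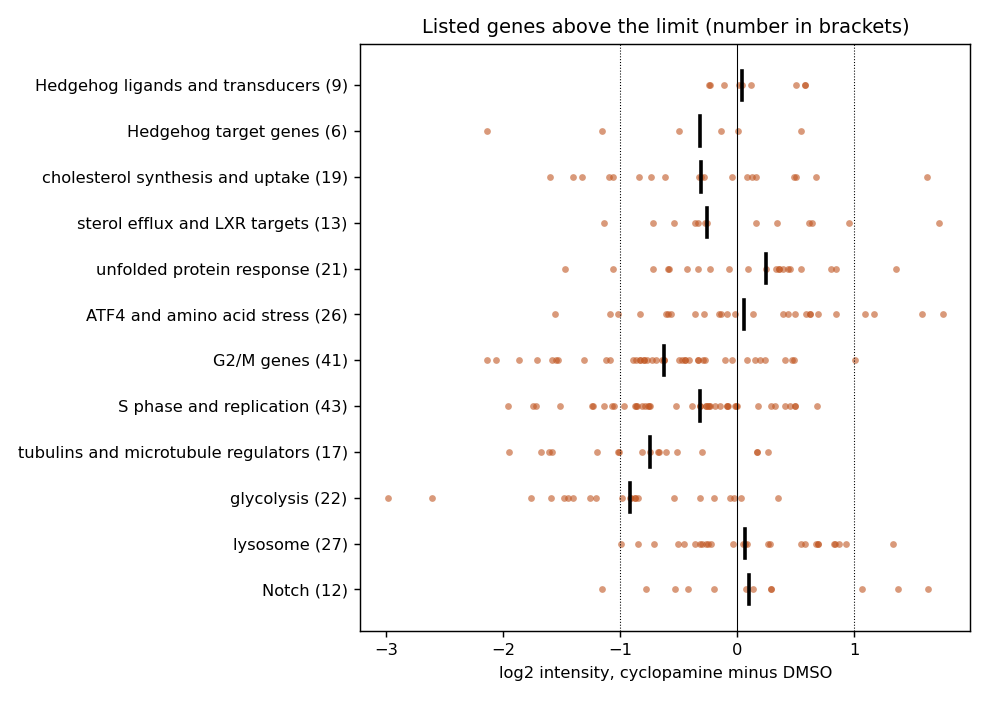
Log2 difference of cyclopamine from DMSO for each gene above the limit in 12 gene lists (points), with the list's median (black bar) and 2-fold lines (dotted). The medians of G2/M genes, tubulins and glycolysis lie at −0.63, −0.74 and −0.91, and that of the Hh ligands and transducers lies at 0.04.

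In 7 genes the compounds gave opposite differences, cyclopamine at least 2-fold and GANT61 more than 1.5-fold from DMSO. FST, follistatin, which binds activin, had an intensity of 231 with cyclopamine, 1305 with GANT61 and 492 with DMSO (−1.09 and 1.41). GPNMB, a glycoprotein of lysosomes and melanosomes, had 1119 with cyclopamine, 237 with GANT61 and 443 with DMSO (1.34 and −0.90), and CRYAB, a small heat shock protein, had 405 with cyclopamine, 103 with GANT61 and 164 with DMSO (1.31 and −0.67). PIEZO2, a mechanically gated channel, had 531, 123 and 255 with cyclopamine, GANT61 and DMSO, and CPQ, a peptidase, had 351, 85.7 and 152. IGSF5, of the immunoglobulin superfamily, and KIF26A, an atypical kinesin, were likewise higher with cyclopamine (1.15 and 1.09) and lower with GANT61 (−1.17 and −0.61). In all 7 the DMSO array lay between the treated arrays, as the choice of these genes requires.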

How the data were processed

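The authors deposited linear signal intensity values of 47319 probes for the 3 arrays after normalization between arrays; the software and its version are, in the sources used here, not given. In another deposited table none of the 6 value columns could be tied to a sample by its heading, so it was left out. Gene symbols came from GEO's annotation of the platform, updated by a RefSeq gene table (GRCh38.p14): 30110 have 1 symbol, 8 several (left out) and 17201 are unnamed here. A gene was represented by its brightest probe over the 3 arrays. The limit was 1.5 times the most common intensity (42.5, in bins of 1). A value under it gives only a bound, the brighter intensity over the limit. Each difference is log2 of the treated intensity minus log2 of the DMSO intensity. With 1 array per condition no test was run. Arrays carry no depth, and their number limits the precision.

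Genes were named by rule: the 12 largest differences in each direction among the genes particular to cyclopamine, the 8 largest of all genes, up to 4 per list, all Hh and cholesterol genes above the limit, and those at the threshold. Others were chosen after their values were seen. The members and the 52 gene lists were chosen with earlier results of these data known. Alternatives were the mean of all probes, no filter, a limit of 2 times the most common intensity, values set to the limit, a 3-fold threshold, scaling on reference genes, normexp background correction (offset 50) before quantile normalization, and other windows for GANT61. Steps were tested on simulated arrays. Python 3.11.15, numpy 2.4.6, pandas 2.3.3, matplotlib 3.10.9, R 4.3.3 and limma 3.58.1 were used.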

Additional observations from a re-analysis of the deposited data

How the results depend on the processing

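The main counts were 659 lower and 491 higher genes, and 50 lower and 105 higher genes particular to cyclopamine. With a 3-fold threshold they were 155, 59, 2 and 7. Scaling on the reference genes gave 183 lower and 2152 higher genes and 23 lower genes particular to cyclopamine, and the 154 higher ones shared 15 with the 105. With GANT61 within 0.32 of DMSO on the log2 scale, 14 and 51 genes were particular to cyclopamine, and with GANT61 within 2-fold and the treated arrays at least 2-fold apart, 10 and 57. The mean of all probes, no filter, the limit of 2 times the most common intensity, values set to the limit and normexp each kept the 4 counts within 1.5 times, at 530 to 659, 333 to 491, 38 to 50 and 77 to 105. Of the medians of 48 lists with at least 5 genes, 4 changed sign with the mean of all probes, 24 with scaling on the reference genes and 0 with normexp. The sorted intensities of the 3 arrays differed by at most 0.89% at any rank as deposited. Normexp could therefore hardly change a sign, and its 0 is no check of direction. Of 258 named genes, 53 moved by more than the probe SD with the mean of all probes and 0 with normexp. No paired analysis was possible because each condition has 1 array. Brightness limits the 36 lower and 23 higher genes that have only a bound, of which 2 and 13 were particular to cyclopamine.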

Other observations

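The following classes of transcripts outside the lists were examined after their values were seen. Of 38 histone genes above the limit, 29 were higher with cyclopamine than with DMSO. The median of the 38 on the log2 scale was 0.36 with cyclopamine, where that of all genes was 0.03, and −0.03 with GANT61. Scaling on the reference genes gave 0.88 with cyclopamine and would add 0.72 with GANT61, so the gap between the compounds depended on the normalization. Of the 38, 3 were at least 2-fold higher and 2 at least 2-fold lower with cyclopamine, where 4.8% and 6.44% of all genes were. The replication-dependent H2AC6 had an intensity of 369 with cyclopamine, 152 with GANT61 and 115 with DMSO (1.68 with cyclopamine), H4C8 had 304, 153 and 120 in the same order (1.35), and the linker histone gene H1-2 had 1.09. H2AX, whose product marks DNA breaks, and the linker histone gene H1-10 were at least 2-fold lower (−1.36 and −1.68). Most replication-dependent histone messages end without a poly(A) tail and come from similar gene copies, so their signal on these arrays is uncertain.

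Of 163 long noncoding RNA genes above the limit, 11 were at least 2-fold higher with cyclopamine (6.75%, against 4.8% of all genes) and 5 at least 2-fold lower (3.07%, against 6.44%), and 8 were higher and 0 lower among the genes particular to cyclopamine, a rule met by 1.03% of all genes in the higher and 0.488% in the lower direction. At that share a count of 0 lower genes in 163 says little. HOXA11-AS had an intensity of 618 with cyclopamine, 260 with GANT61 and 308 with DMSO (1.01), and ATP2B1-AS1 had 800 with cyclopamine, 381 with GANT61 and 395 with DMSO (1.02). SLCO4A1-AS1 was at least 2.11-fold higher, since DMSO was not above the limit. H19, an imprinted fetal transcript, had a log2 difference of −2.23 with cyclopamine.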
